A study of Mus musculus with 8 samples.

Results

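miR-221 and miR-222 are a pair of microRNAs cut from neighbouring hairpins on the X chromosome. This account covers 3 of the 862 miRNA names listed in any of 8 small RNA libraries of mouse liver: miR-221-3p, miR-222-3p and miR-221-5p. They were taken by name, with a name missing from a library's table counted as 0, and all 3 were found. The names were selected on their measured levels in these same libraries, so the differences that set them apart are given as a description. The libraries came from male C57BL/6J mice, 8 weeks old at the start and housed singly, that either underwent caloric restriction (CR) or ate ad libitum (AL) for 12 weeks. Under CR the ration was cut by 20% for 1 week and by 40% for the other 11 weeks. CR mitochondria and AL mitochondria had 3 libraries each, made from mitoplasts, which are mitochondria stripped of their outer membrane, purified by differential centrifugation. CR whole liver and AL whole liver had 1 library each, for which equal amounts of 3 RNA samples were mixed, so nothing in whole liver has a replicate. All mice were wild type.

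MicroRNAs are cut from a hairpin whose stem has a 5′ arm and a 3′ arm, and usually one arm is loaded into Argonaute as the guide while the other is mostly degraded. For miR-221 and miR-222 the 3p arms are the usual guides. They share a seed, the stretch that pairs with target messenger RNAs, and are known for repressing the cell cycle inhibitor p27 (Cdkn1b) and the receptor Kit. In liver they are known to be raised in hepatocellular carcinoma and in activated stellate cells, and they are also well known from endothelium.

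The mature sequences are shown because the shared seed groups the 3p arms and separates them from the 5p arms. They are those listed in the deposited tables, with bases 2 to 8 in capitals.
miR-221-3p: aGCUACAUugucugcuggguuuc
miR-222-3p: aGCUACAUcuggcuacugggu
miR-221-5p: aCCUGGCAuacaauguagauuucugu
miR-222-5p: uCAGUAGCcaguguagauccu
The 3p arms share their first 8 bases and 11 of the 21 positions that both listed sequences have, counted from the 5′ end without gaps. No other name in the tables had the seed GCUACAU. Of the mature mouse miRNAs in RefSeq with this seed, miR-1928 is the remaining one, and it was in none of the 8 tables. The seeds of miR-221-5p and of miR-222-5p were each held by that name alone. miR-222-5p, the last of the 4 arms, was outside the rule and its values are given only beside those of its neighbours.

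The hairpins are shown to place both arms, which are in capitals. Both sequences come from RefSeq (GRCm38.p6), a later build than the mm9 build to which the authors mapped.
Mir221 hairpin: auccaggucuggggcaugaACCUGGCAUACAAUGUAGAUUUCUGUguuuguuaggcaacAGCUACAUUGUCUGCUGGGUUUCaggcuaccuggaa
Mir222 hairpin: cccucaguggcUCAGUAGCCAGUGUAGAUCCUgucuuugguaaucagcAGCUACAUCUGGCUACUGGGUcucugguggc
Mir221 lies at chrX:19146294-19146388 and Mir222 at chrX:19146893-19146971, both on the minus strand and 504 bases apart. No other gene of GENCODE M21 (GRCm38) overlaps the hairpins or the bases between them. The nearest annotated gene on the higher-coordinate side, Gm14636, is a processed transcript on the same strand. Its edge nearest to the hairpins lies 10010 bases away. miR-221-5p spans 26 bases as listed, against 23 for miR-221-3p and 21 for miR-222-3p. RefSeq gives miR-222-3p as 23 bases, and the listed 21 are its beginning.

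Levels are reads per 1000000 (RPM), the authors' scaling of each library's miRNA reads to a total of 1000000, with no scaling for length. The deposited values were whole multiples of 1 read, and so gave 1070762 to 1577691 miRNA reads in the mitochondrial libraries and 2431564 to 3242002 in the pools. A level of 0 allows up to 3 reads, worth 1.90 to 2.80 RPM in mitochondria and 0.925 to 1.23 RPM in the pools. Intervals and this limit cover counting error only. Nothing in the labels ties a mitochondrial replicate to an animal of its own, so tests measure the spread between these libraries, which may be technical. Hepatocyte miRNAs, a list of 6 names led by miR-122, made up 54.2% to 72.0% of the reads in CR mitochondria, 57.8% to 62.7% in AL mitochondria, 56.5% in CR whole liver and 47.6% in AL whole liver. Mitochondria hold no miRNA that defines them, so the purity of the fraction was not checked here.

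The 3p arm of miR-221 was the most abundant member in every library, and miR-222-3p was second in each. miR-221-3p stood at 311, 236 and 349 RPM in the CR mitochondrial libraries and at 438, 352 and 468 RPM in the AL mitochondrial libraries. In whole liver it stood at 323 RPM in the CR pool and 357 RPM in the AL pool. The mitochondrial libraries thus lay on both sides of the pools. By mean level it ranked 57 among the 734 names listed in mitochondria and 71 among the 701 listed in whole liver.

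miR-222-3p, the arm with the same seed, was at 69.1, 46.3 and 69.1 RPM in CR mitochondria and at 84.0, 44.7 and 74.5 RPM in AL mitochondria. The CR pool held 82.7 RPM and the AL pool 88.8 RPM. AL mitochondrial replicate 1 lay between the levels of the pools, and the other mitochondrial libraries lay below both.

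miR-221-5p, the arm opposite miR-221-3p, was nearly missing from mitochondria. It was at 0.833, 4.44 and 3.74 RPM (1, 7 and 4 reads) in the CR mitochondrial libraries. In the AL mitochondrial libraries it was at 1.85, 0 and 1.41 RPM (2, 0 and 2 reads). In whole liver it stood at 73.1 RPM (237 reads) in the CR pool and 73.2 RPM (178 reads) in the AL pool. The fractions were far apart, while the mitochondrial libraries of both diets overlapped at or near the counting limit. In whole liver its level was close to that of miR-222-3p, and in mitochondria it was the lowest of the members in every library.

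**Figure D1:**
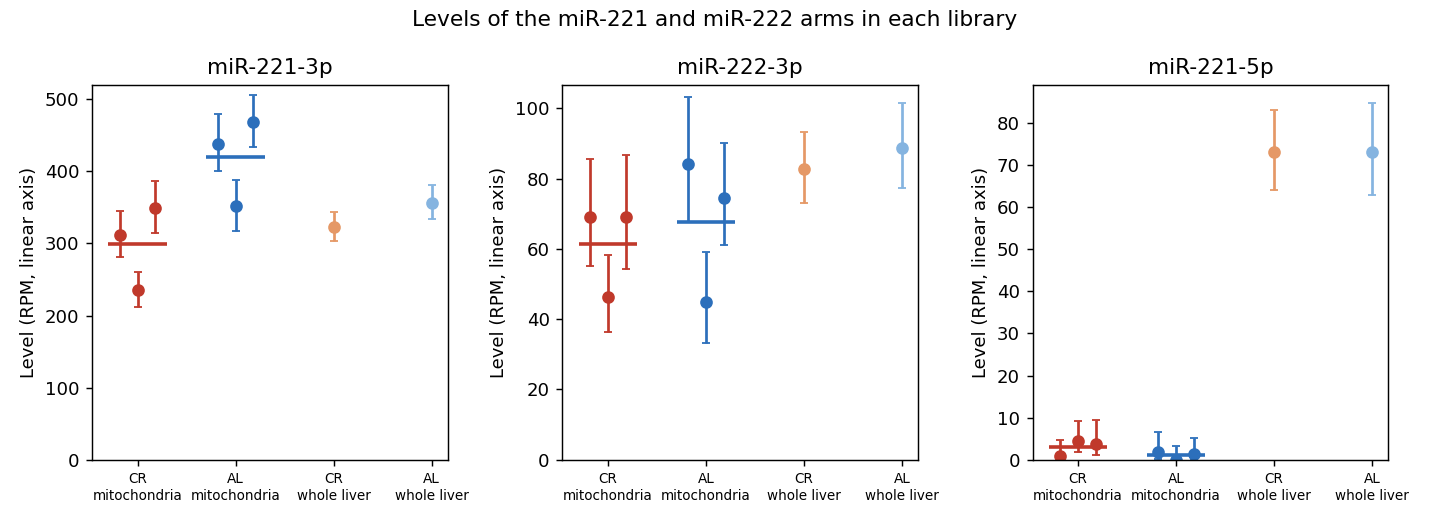
Level in RPM (linear axes, each with its own range) of miR-221-3p, miR-222-3p and miR-221-5p in CR mitochondria, AL mitochondria, CR whole liver and AL whole liver. Points are libraries with exact 95% intervals of the count, and lines are means of 3 libraries. miR-221-5p stands at 0 to 4.44 RPM in the 6 mitochondrial libraries, against 73.1 RPM in the CR pool and 73.2 RPM in the AL pool. The 3p arms differ far less between the fractions.

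Mitochondria were compared with whole liver to see which miRNAs are richer or poorer in the purified fraction. Over all reads of each fraction, miR-221-5p had 16 reads in mitochondria and 415 in whole liver, a level 34.1-fold lower in mitochondria (exact 95% interval 20.7 to 60.1). Under CR the summed level in mitochondria was 23.5-fold lower than in the pool (13.2 to 46.0), and under AL it was 65.9-fold lower (25.3 to 245). Each mitochondrial library was below the pool of its diet, from 16.5-fold lower in CR replicate 2 (7.87 to 41.4) to 87.8-fold lower in CR replicate 1, which held 1 read (15.6 to 3482). AL replicate 2, with no read, would be 26.7-fold lower if 3 reads were counted in that library. That value leaves out the counting error of the pool. The exact 95% upper limit of its ratio to the pool was 0.0465, a weaker bound.

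A limma-trend fit of log2(RPM + 1) over the 417 names with at least 1 RPM in 3 or more of the 8 libraries, with diet as a term, put the log2 difference of miR-221-5p at -4.82 (SE 0.56, 95% interval -6.00 to -3.65). On this scale the difference of a low level is understated. It was the lowest of the 417 log2 differences, whose median was -0.31. Of the names called, 44 were higher and 90 lower, and this split moved to 65 and 63 with miR-122 left out of the scaling and to 97 and 70 with edgeR. Lower calls at an adjusted p of 0.05 were made for 21.6% of the names, calls in either direction for 32.1%, and every mitochondrial library lay below both pools for 27.1% of the names. miR-221-5p met all 3 of these, which is stated as a description since it was chosen with this difference known. The fit assumes that the single pools vary as the mitochondrial libraries do.

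The 3p arms were not called in either direction. For miR-221-3p the log2 difference was 0.05 (SE 0.31, 95% interval -0.60 to 0.70), with a mean of 359 ± 84.7 RPM (SD, n = 6) in mitochondria. Relative to the median of all names it was 0.35, and it was 0.34 with TMM factors and 0.51 with edgeR. For miR-222-3p it was -0.44 (SE 0.36, -1.19 to 0.32), or -0.13 relative to that median and 0.03 with edgeR, with a mean of 64.6 ± 15.8 RPM (SD, n = 6) in mitochondria. By summed reads the ratio of mitochondria to whole liver was 0.749 for miR-222-3p (exact 95% interval 0.659 to 0.852). It was 0.723 under CR (0.603 to 0.865) and 0.769 under AL (0.638 to 0.928). For miR-221-3p the ratio was 0.901 under CR (0.827 to 0.981) and 1.19 under AL (1.09 to 1.29). These intervals cover counting error only. miR-222-5p was at 1.67, 4.44 and 0.934 RPM in CR mitochondria and at 0.923, 2.74 and 0 RPM in AL mitochondria, against 2.78 RPM in the CR pool and 4.52 RPM in the AL pool. These ranges overlapped, and with 14 reads in all mitochondrial libraries and 20 in the pools its ratio of 0.533 had an exact 95% interval of 0.249 to 1.11. By diet the ratio of mitochondria to the pool was 0.936 under CR (0.342 to 2.60) and 0.246 under AL (0.0570 to 0.829), the AL value resting on 4 reads in mitochondria and 11 in the pool.

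**Figure D2:**
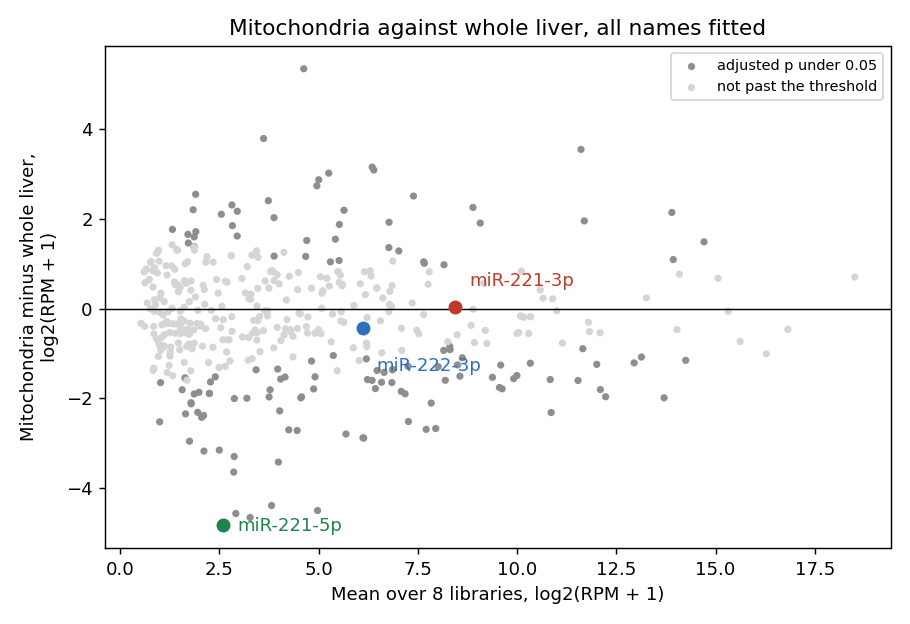
Mitochondria minus whole liver difference in log2(RPM + 1) against the mean log2(RPM + 1) over 8 libraries, for the 417 names fitted. Small points are names, darker where the adjusted p was under 0.05. miR-221-5p lies at the bottom, at -4.82, and miR-221-3p and miR-222-3p lie near 0, at 0.05 and -0.44.

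The share of the 5p arm among all miR-221 reads does not depend on how a library is scaled. In CR mitochondria miR-221-5p made up 0.267%, 1.85% and 1.06% of the 375, 379 and 378 reads of both arms. In AL mitochondria it made up 0.419%, 0% and 0.299% of 477, 385 and 668 reads. In the pools it made up 18.5% of 1284 reads under CR (exact 95% interval 16.4% to 20.7%) and 17.0% of 1045 reads under AL (14.8% to 19.5%). The highest upper limit in mitochondria, 3.77% in CR replicate 2, was below the lower limits of both pools. By a looser measure, the log2 ratio of the arms without counting intervals, gaps between the fractions were common. That ratio did not overlap for 32 of 55 hairpins compared. The 0 of 385 reads in AL replicate 2 leaves an upper limit of 0.954%.

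The shares of the neighbouring hairpin overlapped between the fractions. miR-222-5p made up 2.35%, 8.75% and 1.33% of the miR-222 reads in CR mitochondria and 1.09%, 5.77% and 0% in AL mitochondria. It made up 3.25% in the CR pool and 4.85% in the AL pool, within the range of the mitochondrial libraries. These shares rest on 52 to 106 reads per mitochondrial library, so differences of a few percentage points were not detectable at this depth.

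**Figure D3:**
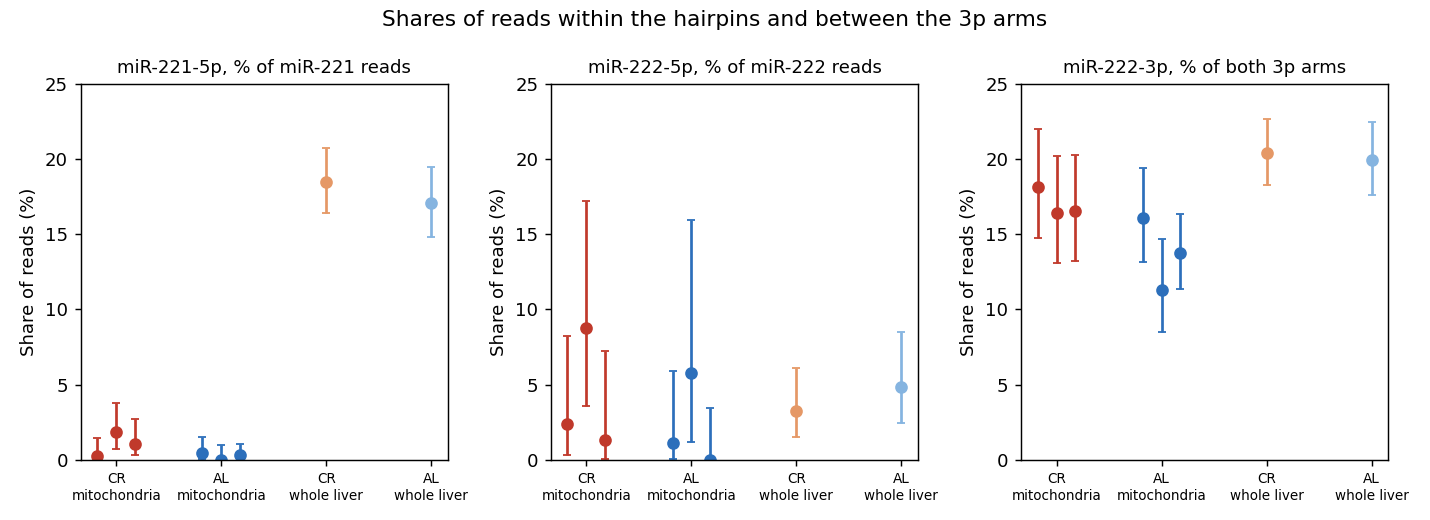
Share of reads in percent, per library, with exact 95% intervals, in CR mitochondria, AL mitochondria, CR whole liver and AL whole liver: miR-221-5p among both miR-221 arms, miR-222-5p among both miR-222 arms, and miR-222-3p among both 3p arms. The first share is at most 1.85% in mitochondria against 18.5% in the CR pool and 17.0% in the AL pool, and the second overlaps between the fractions.

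Other hairpins were compared in the same way, as the shift of the log2 ratio of the arms between the fractions. Of 236 hairpins with both arms listed, 55 had a mean of at least 10 RPM over the 4 groups for each arm. A hairpin could pass through the fraction in which an arm was high, as miR-221 did through whole liver and let-7g through mitochondria, so the order of the shifts is not read as a result. Among these the log2 ratio of the 5p to the 3p arm shifted by -5.77 to 4.19 between mitochondria and whole liver, with a median of -0.12. The shift of miR-221 was -4.87 and that of let-7g -5.77. The shift was below -2 for 8 hairpins and above 2 for 7 hairpins. miR-872 also had a much lower 5p arm in mitochondria (6.05 RPM, against 138 RPM in whole liver) beside a 3p arm of like level (11.2 RPM in mitochondria and 11.6 RPM in whole liver). For let-7g it was the 3p arm that differed most in ratio (23.9 RPM in mitochondria and 0.720 RPM in whole liver). miR-222 did not reach the level for this comparison.

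**Figure D4:**
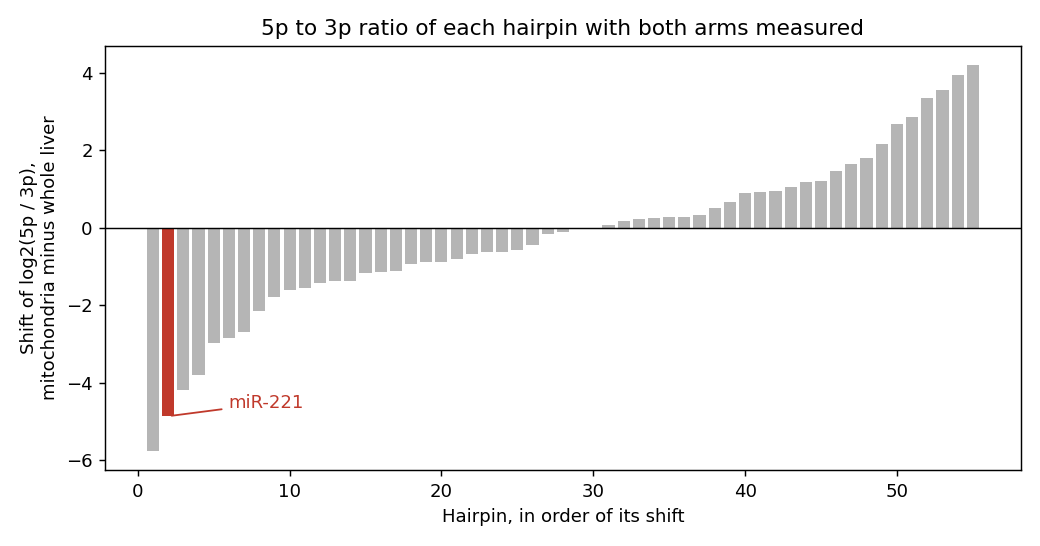
Shift of log2(5p / 3p), mitochondria minus whole liver, for the 55 hairpins whose arms each had a mean of at least 10 RPM over the 4 groups, in order of the shift. Each bar is a hairpin, and ratios use RPM + 1. miR-221 is the coloured bar at -4.87, and shifts reach 4.19 at the other end.

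The listed length of miR-221-5p, 26 bases, was shared by 4 of the 417 names fitted. The others were miR-3535 (34.6 RPM in mitochondria and 70.4 RPM in whole liver), miR-1291 (12.1 RPM in mitochondria and 12.7 RPM in whole liver) and miR-6240 (22.8 RPM in mitochondria and 2.83 RPM in whole liver). Their log2 differences were -1.05, -0.05 and 2.40, so names of this length lay on both sides of 0. The median was -0.28 over the 227 names of 22 bases, -0.44 over the 67 names of 23 bases and -0.55 over the 4 names of 26 bases. Medians by length ran from 0.94 over the 2 names of 18 bases to -1.14 over the 4 names of 25 bases. The part of length in these differences was not tested. The tables give the length of the named sequence and not that of the reads.

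Markers of other cells were set beside these values. Over all 417 names 21.6% were called lower and 32.1% in either direction. Of 6 leukocyte and Kupffer cell names, 1 was called higher in mitochondria than in whole liver, miR-146a-5p (a mean of 6597 RPM, against 510 RPM). Their sum took 0.296% to 1.10% of the reads in mitochondria, against 0.0710% in the CR pool and 0.103% in the AL pool. Without miR-146a-5p the sum was 197 to 417 RPM in mitochondria, against 320 RPM in the CR pool and 398 RPM in the AL pool, so the fractions overlapped in the sum of the other 5.

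Of 6 stellate and smooth muscle names, 1 was called higher, miR-143-3p (35689 RPM in mitochondria, against 12408 RPM in whole liver), and 2 lower, miR-199a-5p and miR-145a-5p. Of the 2 endothelial names listed, miR-126a-3p was called lower (7990 RPM in mitochondria, against 15856 RPM in whole liver). Beside the 21.6% of all names called lower and the 32.1% called in either direction, counts in such short lists are no result about a cell type. None of the 6 hepatocyte names and none of 4 erythroid names was called, and the erythroid names took at most 0.00950% of the reads in any library. No listed marker was at 0 in every library of a group. In such bulk samples fewer cells of a type and less RNA per cell cannot be told apart. The part of these cells in the levels of miR-221 and miR-222 was not tested.

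The study asked how caloric restriction affects small RNA in liver mitochondria, and no member was called between CR and AL. In mitochondria miR-221-3p averaged 299 ± 57.8 RPM under CR and 419 ± 60.6 RPM under AL (SD, n = 3 each). Its highest CR library (349 RPM) was just below its lowest AL library (352 RPM), so the groups did not overlap. Every CR library was below every AL library for 14.3% of the 391 names tested, which sets the background for this. By limma-trend the log2 fold change was -0.50 (SE 0.32, 95% interval -1.18 to 0.18, Benjamini-Hochberg adjusted p = 0.544), and -0.32 relative to the median of all names, which was -0.17. Only 0.512% of the names were called. The summed leukocyte and Kupffer cell markers stood at 0.296% to 0.484% in CR mitochondria, against 0.803% to 1.10% in AL mitochondria, with none of the 6 called. Most of that sum was miR-146a-5p, at 2763 to 4626 RPM in CR mitochondria and 7609 to 10739 RPM in AL mitochondria. Without it the sum was 197 to 261 RPM in CR mitochondria and 270 to 417 RPM in AL mitochondria, so the sum of the other 5 did not overlap. Of these 5, only miR-142a-5p lay wholly lower under CR (74.7 to 103 RPM, against 112 to 262 RPM under AL). miR-150-5p lay wholly higher under CR (20.0 to 73.5 RPM, against 12.7 to 18.5 RPM under AL). miR-142a-3p, miR-223-3p and miR-155-5p overlapped between the diets. Of the 6 stellate and smooth muscle names, miR-199a-3p was called lower in CR mitochondria (602 RPM) than in AL mitochondria (1889 RPM), and the median log2 fold change of the list was -0.58. The summed list overlapped, at 2.55% to 4.46% in CR mitochondria and 3.55% to 4.73% in AL mitochondria. The part of these markers in the level of miR-221-3p was not tested.

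miR-222-3p averaged 61.5 ± 13.2 RPM in CR mitochondria and 67.8 ± 20.5 RPM in AL mitochondria (SD, n = 3 each), and the libraries overlapped. Its log2 fold change was -0.11 (SE 0.38, 95% interval -0.91 to 0.69, limma-trend adjusted p = 0.929). The sign turned positive with other scalings, at 0.10 with TMM factors and 0.13 with DESeq2 size factors. miR-221-5p averaged 3.002 ± 1.91 RPM in CR mitochondria and 1.08 ± 0.964 RPM in AL mitochondria (SD, n = 3 each), a log2 fold change of 0.93 (SE 0.64, -0.41 to 2.27, limma-trend adjusted p = 0.577). This value was 1.55 with edgeR and 0.38 with a pseudocount of 5 RPM, and ranged from 0.47 without AL replicate 2 to 1.42 without CR replicate 1. With 12 reads under CR and 4 under AL over 3 libraries each, only a large difference was detectable at this depth.

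In whole liver the members differed little between the pools. The ratio of the CR to the AL pool was 0.906 for miR-221-3p (exact 95% interval 0.827 to 0.992), 0.931 for miR-222-3p (0.775 to 1.12) and 0.999 for miR-221-5p (0.819 to 1.22). None was 2-fold apart, and of the 243 names that reached 10 RPM in either pool, 11.1% were. With TMM factors all 3 ratios were above 1, with log2 values of 0.16, 0.20 and 0.31. These ratios compare 2 libraries and not the diets.

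**Figure D5:**
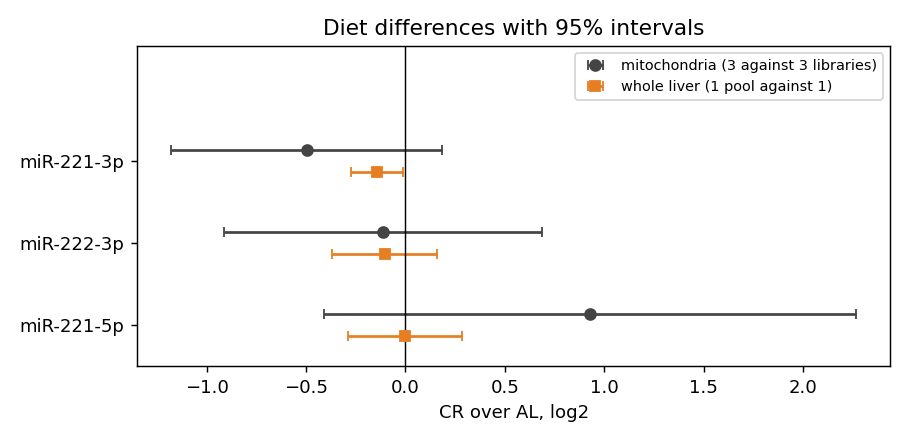
Log2 ratio of CR to AL for the 3 members. Circles are mitochondria, 3 against 3 libraries, with 95% intervals of the limma-trend fit, and squares are whole liver, 1 pool against 1, with exact 95% counting intervals. Intervals in mitochondria all include 0, and that of miR-221-3p reaches from -1.18 to 0.18.

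The difference between the diet effects in mitochondria and in whole liver was tested as an interaction over all 8 libraries. It was -0.35 for miR-221-3p (SE 0.65), -0.01 for miR-222-3p (SE 0.76) and 0.93 for miR-221-5p (SE 1.18), with a limma-trend adjusted p of 0.998 for each. Of the 417 names 0% were called, 5 had an unadjusted p under 0.05, and edgeR also called 0. With no filter on low levels 129 names were called, none of them a member. With 1 pool per diet the intervals are wide, from -1.55 to 3.41 for miR-221-5p.

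The balance of the pair was compared as the share of miR-222-3p among the reads of both 3p arms. It was 18.2%, 16.4% and 16.5% in CR mitochondria and 16.1%, 11.3% and 13.7% in AL mitochondria. In whole liver it was 20.4% in the CR pool (exact 95% interval 18.2% to 22.7%) and 19.9% in the AL pool (17.6% to 22.5%). As point values, every CR mitochondrial library was above every AL mitochondrial library, and all 6 were below both pools. No background share was counted for this. Counting intervals overlapped between some libraries of the diets, as at 13.1% to 20.2% in CR replicate 2 and 13.1% to 19.4% in AL replicate 1. They did not overlap between CR replicate 1 (14.73% to 22.01%) and AL replicate 2 (8.47% to 14.65%). The intervals of every CR replicate and of AL replicate 1 also overlapped that of the AL pool. The CR mean exceeded the AL mean by 3.33 percentage points (exact two-sided permutation p = 0.1, the smallest that 3 against 3 libraries allow, and 0.2 adjusted over the 2 shares tested). The difference was 2.12 points without AL replicate 2 and 4.52 points without AL replicate 1. The share of miR-221-5p among miR-221 reads averaged 1.06% ± 0.790 in CR mitochondria and 0.240% ± 0.216 in AL mitochondria (SD, n = 3 each), a difference of 0.818 points (exact permutation p = 0.3, adjusted 0.3). It was 0.423 points without CR replicate 2 and 1.21 points without CR replicate 1.

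The names most like each 3p arm were found over the 6 mitochondrial libraries, among 225 names with a mean of at least 10 RPM there, by Pearson's r of log2(RPM + 1). For miR-221-3p they were miR-423-5p (r = 0.96), miR-7a-5p (0.89), miR-185-5p (0.88), miR-497a-5p (0.86) and let-7b-5p (0.86). For miR-222-3p they were miR-1291 (0.89), miR-128-3p (0.88), miR-15a-5p (0.86), miR-22-5p (0.86) and let-7a-1-3p (0.82). All 5 names of each set had lower means under CR, such as miR-423-5p with 95.5 RPM in CR mitochondria and 169 RPM in AL mitochondria. Their log2 fold changes ran from -0.81 to -1.25 in the miR-221-3p set and from -0.01 to -0.52 in the miR-222-3p set. Over the 391 names tested the median was also below 0, at -0.17. The share of the 225 names with lower means was not counted, so this is no result about the sets. The r between the 2 3p arms themselves was 0.69, which placed miR-222-3p at order 21 for miR-221-3p and miR-221-3p at order 12 for miR-222-3p. The 6 points share their scaling and include both diets, and the values of r are a description.

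miRNAs known to change in liver cancer were compared as the wider group to which miR-221 and miR-222 belong. Of 14 further names known to be raised there, 1 was called higher and 6 lower in mitochondria than in whole liver. Over all names 21.6% were called lower and 32.1% in either direction. The median log2 difference of the list was -1.15, beside -0.31 over all names. The lower ones were miR-224-5p (1.98 RPM in mitochondria, against 22.4 RPM in whole liver) and 5 others, among them miR-25-3p (169 RPM in mitochondria and 719 RPM in whole liver), miR-92a-3p (662 RPM in mitochondria and 1996 RPM in whole liver) and miR-17-5p (89.8 RPM in mitochondria and 272 RPM in whole liver). miR-93-5p stood at 209 RPM in mitochondria and 513 RPM in whole liver, and miR-96-5p at 13.9 RPM in mitochondria and 35.1 RPM in whole liver. The higher one was miR-151-5p (168 RPM in mitochondria and 66.6 RPM in whole liver). Between CR and AL mitochondria none of the 14 was called, with a median of 0.37.

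Of 15 names known to be lowered in liver cancer, 2 were called higher and 4 lower in mitochondria than in whole liver, with a median of -0.54. These counts are close to the 21.6% of all names called lower and the 32.1% called in either direction, and are no result about the list. The higher ones were miR-29c-3p (709 RPM in mitochondria and 147 RPM in whole liver) and miR-29b-3p (351 RPM in mitochondria and 177 RPM in whole liver), known repressors of collagens. The lower ones were miR-125b-5p (138 RPM in mitochondria and 868 RPM in whole liver), miR-199a-5p (244 RPM in mitochondria and 673 RPM in whole liver), miR-145a-5p (294 RPM in mitochondria and 695 RPM in whole liver) and miR-26a-5p (6781 RPM in mitochondria and 14867 RPM in whole liver). Between CR and AL mitochondria 1 of the 15 was called, miR-199a-3p, and it was lower (602 RPM under CR and 1889 RPM under AL), with a median of -0.44. That call was lost without any one CR library and without AL replicate 2 or 3, when no name was called lower. In the pools 3 of 13 raised names were at least 2-fold higher and 1 lower under CR, and of the 15 lowered names 0 were higher and 1 lower. Over all 243 names compared there, 10 were higher and 17 lower, or 19 and 6 with TMM factors. With 1 pool per diet these counts are no result about the lists. These lists were chosen with earlier results of the libraries known.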

How the data were processed

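Small RNA of 2 whole-liver pools and 6 mitochondrial preparations was sequenced, and all 8 libraries were used, grouped by their titles. The deposited RPM values are the authors' reads per 1000000 over the listed miRNA names, although the tables' headers say tpm. Reads were mapped with Bowtie to mm9, per the submitters' processing notes. How names, mismatches, multiple hits and strand were handled is not given in the sources used here. All values (100%) were whole multiples of 1 read within 0.01, so reads were recovered. The plan named limma-trend (limma 3.58.1, R 4.3.3) on log2(RPM + 1) for names reaching 1 RPM in 3 or more of the libraries fitted, Benjamini-Hochberg adjusted over all names, threshold 0.05. edgeR 4.0.16 on recovered reads and size factors of DESeq2 1.42.0 were alternatives, and edgeR called 7 names for diet in mitochondria. The fits were tested on simulated data. Shares used exact permutation tests (scipy 1.17.1, numpy 2.4.6, pandas 2.3.3, Python 3.11.15, matplotlib 3.10.9), and intervals of counts are exact Clopper-Pearson (95%).

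The named miRNAs were the members, names with a member's seed, the 5 names most like each 3p arm, and the members of the liver cancer lists past the threshold. miR-222-5p and hairpins named for their arm shift were added after their values were seen. The members and lists were chosen with earlier results of these data known. RefSeq sequences matched 3 of the 4 arms by name, and miR-222-5p was placed by its sequence in the hairpin.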

Additional observations from a re-analysis of the deposited data

How the results depend on the processing

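Over 192 alternative values 159 kept their direction and side of the threshold (or stayed close to the reported value). The log2 difference of miR-221-5p between mitochondria and whole liver, for which it was chosen, ranged from -5.21 to -3.51 over 13 alternatives, which is a description. It drops out where 10 RPM in 3 libraries is asked for. The sign of miR-222-3p for diet in mitochondria turned with TMM factors (0.10), DESeq2 size factors (0.13), miR-122 left out (0.032) and edgeR (0.10), and ranged from -0.38 to 0.077 with a library left out. Its interaction turned with TMM (0.021), DESeq2 factors (0.065), miR-122 left out (0.12) and edgeR (0.17), and ranged from -0.28 to 0.18 with a library left out. Against whole liver miR-222-3p was at 0.035 with edgeR, and miR-221-3p at 0.34 with TMM, 0.36 with DESeq2 factors, 0.46 without miR-122 and 0.51 with edgeR, and from -0.0039 to 0.13 with a library left out. None of these was called. In the pools the log2 ratio of miR-221-3p was 0.16 with TMM and 0.020 with DESeq2 factors, that of miR-222-3p 0.20 and that of miR-221-5p 0.31 with TMM. The 2 names called for diet in mitochondria became 10 with no filter, 8 with at least 10 RPM, 5 with TMM or DESeq2 factors, 4 without miR-122, 7 with edgeR, and 0 to 6 with a library left out (0 without AL replicate 2, CR replicate 1 or CR replicate 2, 1 without AL replicate 3 or CR replicate 3, and 6 without AL replicate 1). The interaction called 129 names with no filter. Of the calls against whole liver 44 were higher and 90 lower, against 59 and 72 with TMM, 62 and 72 with DESeq2 factors, 65 and 63 without miR-122 and 97 and 70 with edgeR. Other scalings moved the median of all names from -0.31 to as much as -0.02 there, and from -0.17 to as much as 0.03 for diet in mitochondria. With the replicate block the log2 fold change of miR-221-3p for diet had an unadjusted p of 0.0487 and an adjusted p of 0.276, and 3 names were called. The SE for miR-221-3p fell from 0.32 to 0.22 with that block. Same-numbered libraries deviated together with r = 0.36, 0.08 and 0.11, against -0.29 to 0.22 for differently numbered ones. These r do not decide whether the numbers mark pairs. The labels name no pairs, so the numbers were not taken as pairs in the main fit. The cause of these changes was not tested. Depth limits miR-221-5p and miR-222-5p in mitochondria, where each had at most 7 reads in a library.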
